A study of Mus musculus with 4 samples.

Results

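The 8 genes described here are *Lin28a*, *Lin28b*, *Trim71*, *Hmga1*, *Hmga2*, *Igf2bp1*, *Igf2bp2* and *Igf2bp3*, which are known for high expression in embryonic and fetal cells. They were taken by gene symbol from the 24637 genes of the table, each symbol gave 1 row, and all 8 were above the minimum mean of 10 normalized counts used for testing. Messenger RNA was sequenced in 4 libraries of mouse embryonic stem cells (ESCs) differentiated towards cardiomyocytes, 2 of them labelled WT (Taf4+/+) and 2 labelled *Taf4a*-/-. *Taf4a* encodes Taf4, a subunit of the general transcription factor TFIID, and the mutant allele lacks part of its exons in all cells from the start. All 4 ESC lines came from blastocysts of *Taf4a*+/- crosses and were kept on inactivated mouse embryonic fibroblasts with LIF. They were then grown for 5 days as embryoid bodies and for 9 days on gelatin. Each library is 1 independent line, so a group is 2 lines, and the RNA came from whole cultures of mixed cell types.

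Lin28a and Lin28b are RNA-binding proteins of pluripotent and fetal cells that hold back the maturation of let-7 microRNAs. Let-7 microRNAs rise as cells differentiate and pair through their seed with sites in the 3′ untranslated regions (UTRs) of messenger RNAs, whose translation and stability they lower. Messenger RNAs of the Lin28, Trim71, Hmga and Igf2bp families are textbook let-7 targets, so that Lin28 and let-7 hold each other down, and the switch between them is used as a marker of developmental timing.

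The mature let-7 sequences are shown because their shared seed defines the sites searched for in the 8 genes. In the RefSeq microRNA table (GRCm38.p6), 11 mature mouse microRNAs had the seed GAGGUAG at bases 2 to 8, of which 9 are named let-7. The seed is in capitals in the 4 examples printed here, which differ from each other only outside it.
mmu-let-7a-5p: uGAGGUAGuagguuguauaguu
mmu-let-7d-5p: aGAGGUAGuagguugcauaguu
mmu-let-7g-5p: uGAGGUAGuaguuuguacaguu
mmu-miR-98-5p: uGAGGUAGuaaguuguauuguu

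The precursor hairpin is the RNA that Lin28 binds, and its zinc knuckles are known to recognise GGAG in the loop region. GGAG stood between the mature arms in 9 of 12 hairpins of the let-7 and miR-98 genes, against 53 of 645 (8.22%) of all mouse hairpins with both arms in that table. The 3 without it were *Mirlet7b*, *Mirlet7c-2* and *Mir98*. One hairpin of each kind is printed, with GGAG in capitals where it was found.
Mirlet7g: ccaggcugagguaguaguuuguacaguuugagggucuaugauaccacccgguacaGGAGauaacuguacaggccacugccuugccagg
Mirlet7b: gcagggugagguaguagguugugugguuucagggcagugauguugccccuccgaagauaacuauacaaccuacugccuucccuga

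Matches to the seed were then searched in the longest annotated 3′ UTR of each gene, on the transcript's strand, in 3 classes that were each counted once in the highest class. These were CTACCTCA (an 8-mer), CTACCTC (a 7-mer) and TACCTCA (a 7-mer ending opposite the first base of the microRNA). All 8 genes held at least 1 match and 7 held an 8-mer, whereas 14.0% of the 20007 genes with an annotated 3′ UTR held any match and 3.01% an 8-mer. Since these genes are known as let-7 targets, this count describes them and is no test. One or more sites of each gene are printed with 22 bases, match in capitals, 5′ to 3′ on the transcript's strand, with mm9 (NCBIM37) coordinates.
Lin28a, first site, chr4:133561104-133561125, minus strand: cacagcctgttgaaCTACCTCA
Lin28a, second site, chr4:133560466-133560487, minus strand: agatcgccacaaacCTACCTCA
Lin28b, chr10:45100828-45100849, minus strand: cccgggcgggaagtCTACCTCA
Trim71, first site, chr9:114421590-114421611, minus strand: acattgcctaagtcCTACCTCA
Trim71, second site, chr9:114421494-114421515, minus strand: gtgataatttctatCTACCTCA
Hmga1, chr17:27700222-27700243, plus strand: tcctctgttcacaaaCTACCTC
Hmga2, chr10:119801280-119801301, minus strand: ccgacattcaatttCTACCTCA
Igf2bp1, chr11:95823092-95823113, minus strand: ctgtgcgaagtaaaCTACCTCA
Igf2bp2, chr16:22059546-22059567, minus strand: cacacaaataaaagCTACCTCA
Igf2bp3, chr6:49036786-49036807, minus strand: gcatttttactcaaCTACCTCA

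The number and spacing of the matches differed widely among the 8 genes. *Hmga2* had the most, with 7 matches spread over a 3′ UTR of 3014 bases, of which 1 was an 8-mer at 58 bases after the stop codon. Of the 2134 genes with a 3′ UTR of 0.8 to 1.25 times that length, 3 had as many or more, and these counts include the gene itself. *Lin28b* had 5 matches in 4445 bases, reached by 5 of 1065 genes of like length, and *Igf2bp1* had 5 in 6337 bases, 3 of them 8-mers, reached by 4 of 380. *Trim71* had 3 in only 1370 bases, reached by 6 of 3028. The remaining genes were less unusual for their length. *Lin28a* had 2 matches, both 8-mers, and 110 of 2323 genes of like length had as many or more. *Igf2bp2* also had 2, a number reached by 97 of 3075, while the single matches of *Igf2bp3* and *Hmga1* were reached by 704 of 2928 and 424 of 2973 genes. *Hmga1* was the member without an 8-mer.

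**Figure D1:**
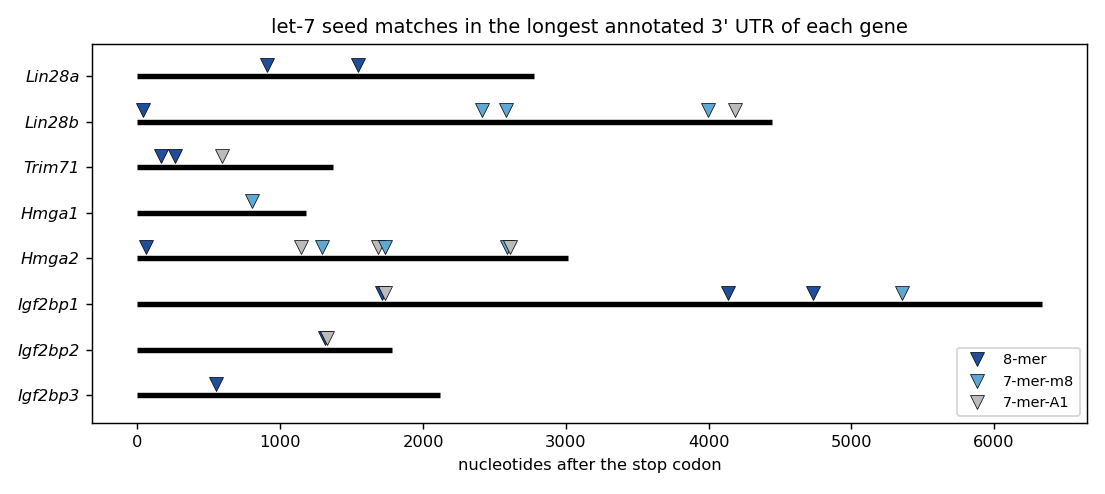
Positions of let-7 seed matches in the annotated 3′ UTRs of the 8 genes, drawn to scale as distance in bases after the stop codon (x axis), with 1 line per gene and the class of each match marked. The 7 matches of *Hmga2* run along its whole 3′ UTR, *Lin28b* and *Trim71* have an 8-mer close to the stop codon, and *Hmga1* has a single 7-mer.

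All 4 libraries were deep, at 21732746 to 27733034 reads assigned to genes, so that counting error is small for genes at this level and the spread between lines limits the precision. The labels were checked on the targeted gene. *Taf4a* itself stood at 889 and 678 normalized counts in WT and at 1722 and 1799 in the libraries labelled *Taf4a*-/-, which was higher by a log2 fold change of 1.18 (SE 0.16, limma adjusted p = 0.00569). Counts over the whole gene do not separate the deleted exons, so this row checks nothing of the deletion, and every direction below rests on the labels: *Taf4a*-/- stands for the libraries so labelled. Of the markers of other cells, 9 of 9 cardiomyocyte genes were called lower in the libraries labelled *Taf4a*-/- (summed level 22322 and 25170 in WT against 1850 and 2105), as were 8 of 8 genes of visceral endoderm and fetal liver (median log2 fold change −6.26, *Alb* at 0 in both), 8 of 8 of macrophages (−8.73, *C1qa* at 0 in both) and 7 of 9 of fibroblasts and feeder cells (−3.45). The 9 pluripotent cell markers were all called higher, with summed levels of 13011 and 14159 against 3822 and 1386. Their part in the results below was not tested. In RNA of a whole culture, fewer cells of a type and less RNA per cell cannot be told apart.

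*Lin28b*, *Trim71* and *Igf2bp1* were higher in the libraries labelled *Taf4a*-/-, at 1.92, 2.05 and 1.71 times the WT level, and no member was called lower. These were 3 of 8 members, where 11.3% of the 16926 tested genes were called higher, 17.3% lower and 28.6% in either direction (limma adjusted p under 0.05). For 5 members both libraries labelled *Taf4a*-/- were above both WT libraries, which held for 34.5% of all tested genes, for none were both below (36.6% of all tested genes), and 3 overlapped. The median log2 fold change was 0.68 over the members against −0.01 over all tested genes. The WT lines differed more than the mutant lines in 7 of 8 members, as in 62.6% of all tested genes, where the median absolute log2 difference was 0.26 between WT lines and 0.16 between mutant lines. WT replicate 1 was above WT replicate 2 in 8 of 8 members (48.2% of all genes), by a median of 0.73 on the log2 scale against −0.02 over all genes. The pluripotent cell markers showed the same order of the WT lines, in 9 of 9 and by a median of 0.80. WT replicate 2 was the lowest of the 4 libraries in 7 of 8 members and in 31.8% of all tested genes. With no variance trend in limma, none of the 3 calls was kept. The limma adjusted p was then 0.084 for *Lin28b*, 0.105 for *Trim71* and 0.074 for *Igf2bp1*. Without the trend, 856 of all tested genes were called higher and 1741 lower, against 1906 and 2928 with it. In the fit with the trend, 4 members were at an unadjusted p under 0.05. The share of all tested genes at that level was not computed, so such counts, here and below, are descriptions only.

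**Figure D2:**
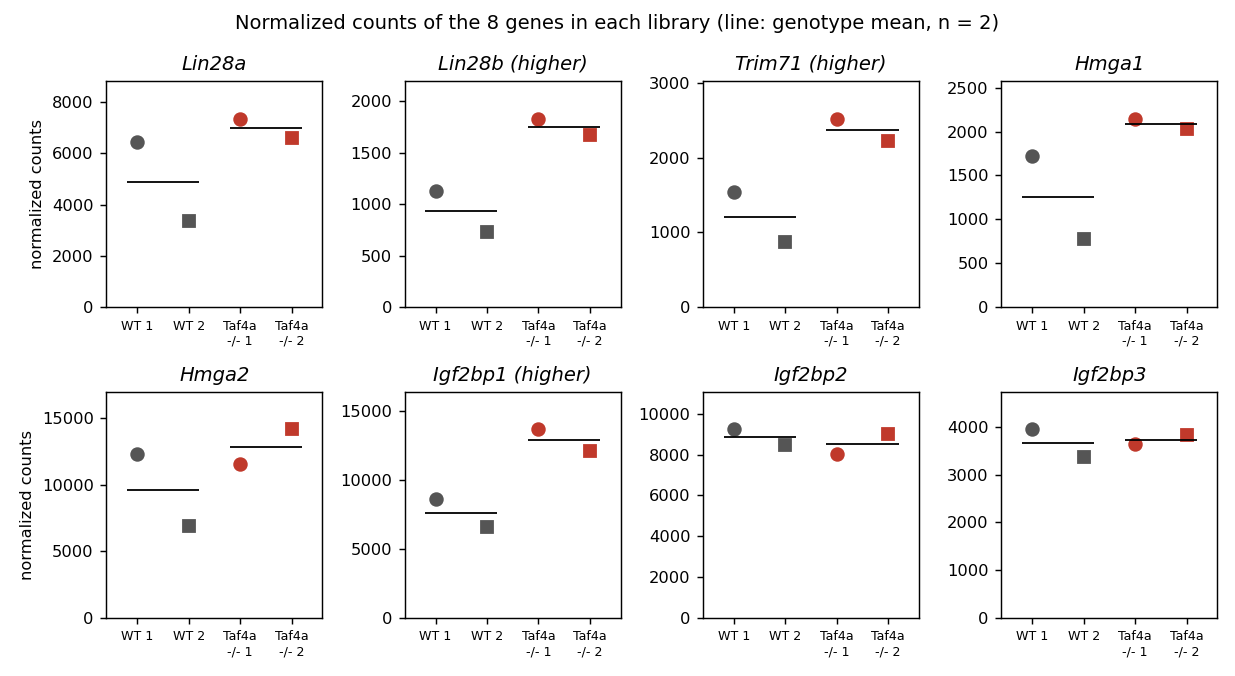
Normalized counts of the 8 genes in each of the 4 libraries (y axis, from 0, with its own scale in each panel), where points are single libraries and horizontal bars are the means of the 2 lines of a genotype. WT replicate 2 is the lowest point in every panel but that of *Igf2bp2*, and WT replicate 1 lies within the range of the libraries labelled *Taf4a*-/- for *Hmga2* and above it for *Igf2bp2* and *Igf2bp3*.

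The 2 Lin28 genes were measured first, as the regulators of let-7. *Lin28a* (ENSMUSG00000050966, chr4:133559245-133574756, minus strand, 4 exons) stood at 6432 normalized counts in WT replicate 1 and at 3342 in WT replicate 2, against 7358 in *Taf4a*-/- replicate 1 and 6594 in *Taf4a*-/- replicate 2. Values of the other genes follow the same order of replicates. WT replicate 1 was close to the mutant range and WT replicate 2 about 0.94 lower on the log2 scale, and the groups did not overlap. The mean was 4887 ± 2185 (SD, n = 2) in WT and 6976 ± 540 (SD, n = 2) in *Taf4a*-/-, a log2 fold change of 0.59 (SE 0.29, 95% confidence interval −0.13 to 1.30) that was not called (limma adjusted p = 0.180). Without WT replicate 1 it was 1.06, and without WT replicate 2 it was 0.11. Here and below, a fit that leaves 1 library in a group takes a gene's own spread from the other group alone. A call gained or lost in such a fit does not measure the spread of both genotypes.

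*Lin28b* (ENSMUSG00000063804, chr10:45096426-45206201, minus strand, 5 exons), whose protein is known to act mainly in fetal tissues and in tumours, had 1129 and 730 normalized counts in WT and 1832 and 1670 in *Taf4a*-/-. Both mutant libraries were above both WT libraries, and the mutant lines lay within 0.13 of each other on the log2 scale. The level rose by a log2 fold change of 0.94 (SE 0.22, 95% confidence interval 0.42 to 1.47, limma adjusted p = 0.0247), or 1.92-fold (1.34 to 2.77). The call was lost without *Taf4a*-/- replicate 1 (log2 fold change 0.88, limma adjusted p = 0.061).

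*Trim71* (ENSMUSG00000079259, chr9:114420393-114473487, minus strand, 4 exons) encodes an RNA-binding ubiquitin ligase of ESCs and embryos that represses messenger RNAs. It had 1538 and 867 normalized counts in WT and 2520 and 2220 in *Taf4a*-/-, so the lowest mutant library was above the highest WT library. It rose by 1.03 on the log2 scale (SE 0.27, 95% confidence interval 0.39 to 1.68, limma adjusted p = 0.0342), or 2.05-fold (1.31 to 3.20), the largest fold change of the 8. The call was lost without WT replicate 2 (0.62, limma adjusted p = 0.055) and without *Taf4a*-/- replicate 1 (0.94, limma adjusted p = 0.066).

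The Hmga proteins are small chromatin proteins that bind AT-rich DNA, abundant in the embryo and in tumours and low in most adult tissues. *Hmga1* (ENSMUSG00000046711, chr17:27693565-27700619, plus strand, 5 exons) had 1722 and 776 normalized counts in WT and 2147 and 2035 in *Taf4a*-/-. The WT lines differed by 1.15 on the log2 scale, the widest gap among the 8 genes, and the mutant lines by 0.08. The groups did not overlap, but the log2 fold change of 0.85 (SE 0.35, 95% confidence interval 0.01 to 1.70) was not called (limma adjusted p = 0.114). It was 1.43 without WT replicate 1 (limma adjusted p = 0.015) and 0.28 without WT replicate 2.

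*Hmga2* (ENSMUSG00000056758, chr10:119798331-119913525, minus strand, 6 exons), the gene with the most let-7 matches, had 12313 and 6907 normalized counts in WT and 11526 and 14160 in *Taf4a*-/-. WT replicate 1 lay between the mutant libraries, so the groups overlapped. The log2 fold change of 0.47 (SE 0.28, 95% confidence interval −0.21 to 1.15) was not called (limma adjusted p = 0.245). It rested on WT replicate 2: it was 0.05 without that library, and 0.89 without WT replicate 1.

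The Igf2bp proteins bind messenger RNAs such as those of *Igf2* and *Myc* and govern their stability, transport and translation. *Igf2bp1* (ENSMUSG00000013415, chr11:95818477-95867254, minus strand, 15 exons) had 8613 and 6583 normalized counts in WT and 13681 and 12143 in *Taf4a*-/-, with no overlap. It rose by 0.78 on the log2 scale (SE 0.17, 95% confidence interval 0.37 to 1.18, limma adjusted p = 0.0210), or 1.71-fold (1.29 to 2.27). The call was lost without WT replicate 2 (0.58, limma adjusted p = 0.058), without *Taf4a*-/- replicate 1 (0.69, limma adjusted p = 0.113) and without *Taf4a*-/- replicate 2 (0.86, limma adjusted p = 0.056).

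*Igf2bp2* (ENSMUSG00000033581, chr16:22059082-22163372, minus strand, 16 exons) had 9236 and 8459 normalized counts in WT and 8041 and 8989 in *Taf4a*-/-. The groups overlapped, and the log2 fold change was −0.06 (SE 0.13, 95% confidence interval −0.37 to 0.25, limma adjusted p = 0.765), whose sign turned under 4 alternatives. *Igf2bp3* (ENSMUSG00000029814, chr6:49035220-49164953, minus strand, 15 exons) had 3952 and 3382 in WT and 3643 and 3828 in *Taf4a*-/-, again overlapping, with a log2 fold change of 0.03 (SE 0.13, 95% confidence interval −0.28 to 0.34, limma adjusted p = 0.874) whose sign turned under 3. As folds, the intervals ran from 0.776 to 1.19 for *Igf2bp2* and from 0.826 to 1.26 for *Igf2bp3*. Changes within these bounds, in either direction, remain compatible with the values. The exons of *Igf2bp3* share 1531 bases with *2410003K15Rik* on the other strand, which had 434 and 592 in WT and 507 and 385 in *Taf4a*-/-, and the kit does not mark strand.

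**Figure D3:**
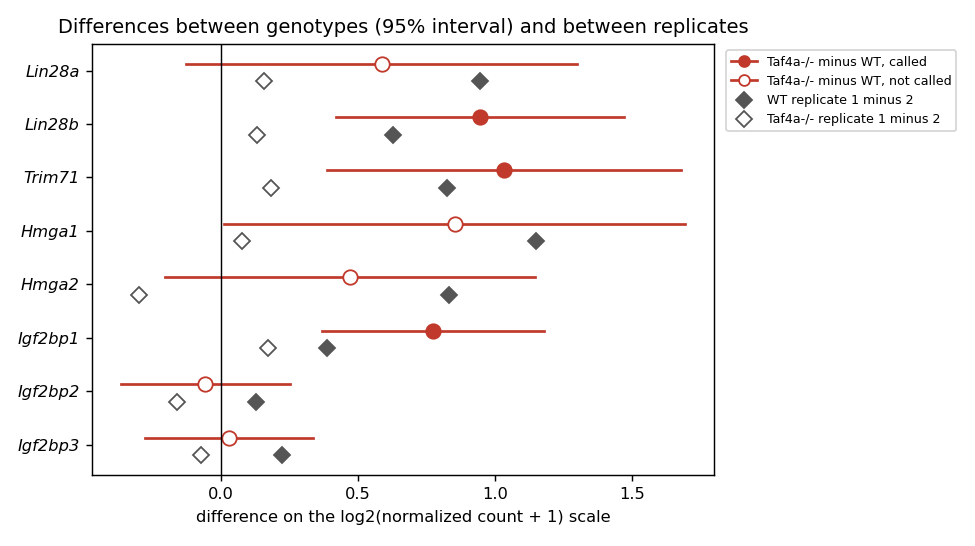
Differences on the log2(normalized count + 1) scale (x axis) for the 8 genes, where circles are *Taf4a*-/- minus WT with 95% confidence intervals from limma (filled where called) and diamonds are replicate 1 minus replicate 2 within WT (filled) and within *Taf4a*-/- (open). The WT diamonds reach 1.15 for *Hmga1*. The gap between the WT lines is wider than the difference between genotypes for *Lin28a*, *Hmga1*, *Hmga2*, *Igf2bp2* and *Igf2bp3*. It is narrower for *Lin28b*, *Trim71* and *Igf2bp1*.

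**Figure D4:**
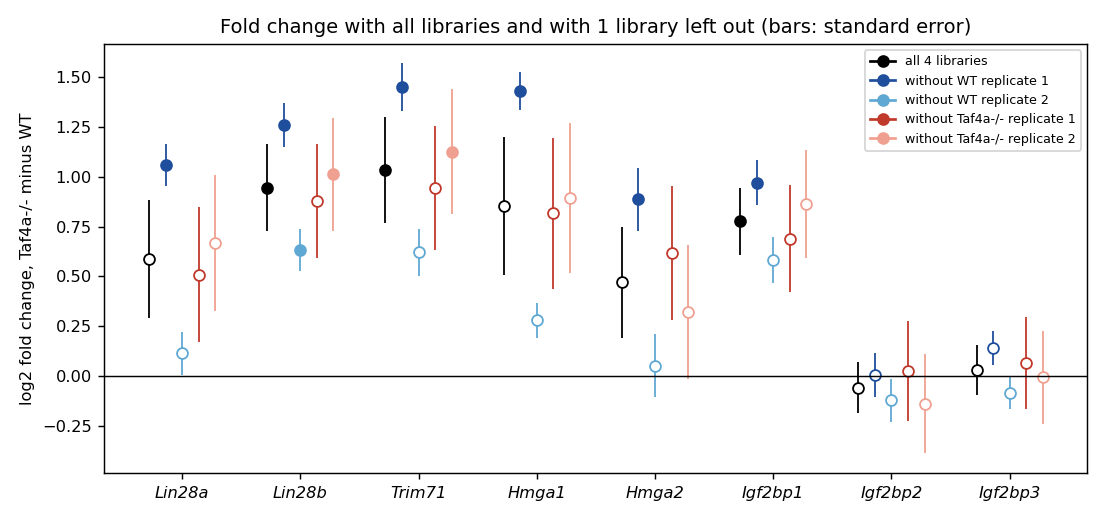
Log2 fold change of *Taf4a*-/- against WT (y axis, bars are standard errors) for each gene (x axis) with all 4 libraries and with each library left out in turn, filled where called. Leaving out WT replicate 1 raises the value of every gene and leaving out WT replicate 2 lowers it, most for *Hmga1*, from 1.43 to 0.28. With 1 library left in a group, the standard error and the call take a gene's own spread from the other group alone.

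Levels were compared between genes as normalized counts per kb of all annotated exons together. In WT the highest were *Lin28a* (1835 and 953), *Hmga2* (1818 and 1020) and *Igf2bp2* (1295 and 1186), whose ranges overlapped. *Igf2bp3* (910 and 779), *Igf2bp1* (890 and 680) and *Hmga1* (865 and 390) followed and overlapped each other in turn. The length of *Igf2bp3* includes 1531 bases shared with *2410003K15Rik*, and how reads there were counted is not known. Its levels per kb, and the shares and ratios below that use them, are uncertain for that reason. *Trim71* (296 and 167) and *Lin28b* (125 and 80.6) were lowest, each below the range of the gene before it. In *Taf4a*-/- the order was *Lin28a* (2099 and 1881) and *Hmga2* (1702 and 2091), then *Igf2bp1* (1413 and 1254), which overlapped with *Igf2bp2* (1128 and 1261). *Hmga1* (1079 and 1023), *Igf2bp3* (839 and 881), *Trim71* (485 and 428) and *Lin28b* (202 and 184) were each apart from the next. The order depends on the length used. Per kb of the longest transcript, a comparison chosen after seeing the data, *Hmga2* stood highest, at 3232 and 1813 in WT and 3025 and 3716 in *Taf4a*-/-, where both of its libraries were above those of *Lin28a*. *Igf2bp2* was then at 1865 and 1708 in WT, within reach of *Hmga2* and *Lin28a*, and *Lin28b*, at 209 and 135, overlapped with *Trim71* in WT.

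Ratios of family members within a library do not depend on the size factor. The log2 ratio of *Lin28a* to *Lin28b* per kb was 3.88 and 3.56 in WT and 3.38 and 3.35 in *Taf4a*-/-, so *Lin28b* made up 6.36% and 7.79% of the pair in WT and 8.78% and 8.92% in *Taf4a*-/-. *Igf2bp1* made up 28.7% and 25.7% of the 3 Igf2bp genes in WT and 41.8% and 36.9% in *Taf4a*-/-, and its log2 ratio to *Igf2bp2* was −0.54 and −0.80 in WT and 0.33 and −0.01 in *Taf4a*-/-. The ratio of *Hmga2* to *Hmga1* was 1.07 and 1.39 in WT and 0.66 and 1.03 in *Taf4a*-/-. These 3 ratios did not overlap between genotypes, most narrowly for *Hmga2* to *Hmga1* (1.07 in WT against 1.03 in *Taf4a*-/-). *Igf2bp3* to *Igf2bp2* did overlap, at −0.51 and −0.61 against −0.43 and −0.52. Of all single genes tested, 34.5% had both libraries labelled *Taf4a*-/- above both WT libraries and 36.6% had both below. No such share was computed over gene pairs, so the count of ratios is a description only. Per kb of the longest transcript, the ratio of *Igf2bp1* to *Igf2bp2* was −0.86 and −1.12 in WT and 0.01 and −0.32 in *Taf4a*-/-, so which of them was higher in *Taf4a*-/- depends on the length, and *Lin28b* made up 10.2% and 12.4% of its pair in WT and 13.9% and 14.1% in *Taf4a*-/-. The difference of a ratio between genotypes does not depend on length. No model was fitted to the ratios, and an exact permutation test of 2 libraries against 2 cannot give a p below 0.333.

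Other genes of the axis were read from lists. Of 28 other let-7 target genes tested, 3 were called higher, 2 lower and 23 not called, with a median log2 fold change of 0.27. Of all tested genes, 11.3% were called higher and 17.3% lower, with a median of −0.01. *Igdcc3*, a cell-surface protein of the immunoglobulin superfamily, rose most, from 1900 and 938 normalized counts in WT to 3938 and 5259 in *Taf4a*-/- (log2 fold change 1.77, SE 0.33, limma adjusted p = 0.0141). *Ccnj*, a cyclin gene, rose by 0.78 (limma adjusted p = 0.0190). *Fas*, a death receptor, went from 157 and 328 in WT to 48.9 and 74.1 in *Taf4a*-/- (−1.90, SE 0.42, limma adjusted p = 0.0222), and the cyclin gene *Ccnd2* had a log2 fold change of −0.72 (limma adjusted p = 0.0442). *Myc* and *Mycn*, at 0.59 and 0.54, were not called. WT replicate 1 was above WT replicate 2 in 22 of the 28. The number called rose without WT replicate 1 and fell without any other library, as it did over all tested genes.

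Among 17 genes of microRNA processing and let-7 turnover, 4 were called higher and none lower, with a median of 0.33. The shares over all tested genes were 11.3% higher and 17.3% lower, and the median was −0.01. *Tarbp2*, a partner of Dicer, had 448 and 366 normalized counts in WT and 660 and 599 in *Taf4a*-/- (log2 fold change 0.63, SE 0.17, limma adjusted p = 0.0385). *Xpo5*, the exporter of precursor hairpins, had 3833 and 2902 in WT and 5173 and 5109 in *Taf4a*-/- (0.62, SE 0.16, limma adjusted p = 0.0320). *Drosha*, which cuts the primary transcript, and the Argonaute gene *Ago3* were also called, at 0.53 and 0.52. *Dicer1* (0.17), and *Zcchc6* (0.05) and *Zcchc11* (−0.03), whose products add uridines to the precursors that Lin28 holds, were not called. With the replicate number as a block, 2 of the 17 were called. Leaving out WT replicate 1 raised the number called and leaving out any other library lowered it, as over all tested genes. In the main fit, 9 of the 17 were at an unadjusted limma p under 0.05. Let-7 itself was not measured: 4 let-7 genes had rows, with at most 7 reads in a library, and mature microRNAs are not captured by poly(A) selection.

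RNAs known to be bound or repressed by the members' proteins, and relatives of the members, were read in the same way, where 28.6% of all tested genes were called in either direction. None of 7 RNAs bound by Igf2bp proteins, the non-coding *H19* among them, was called by limma or by voom. Of these, 3 were at an unadjusted limma p under 0.05. *Igf2* had 292119 and 249893 normalized counts in WT and 213012 and 258660 in *Taf4a*-/- (log2 fold change −0.20, limma adjusted p = 0.619). Of 4 messenger RNAs known to be repressed by Trim71, *Rbl2*, a retinoblastoma-family gene, was called lower, at 743 and 887 in WT against 340 and 386 in *Taf4a*-/- (−1.16, SE 0.17, limma adjusted p = 0.00641). *Cdkn1a* and *Egr1*, at −0.18 and −0.12, and *Rbl1*, at 0.36, were not called. More of the 4 genes were called without WT replicate 1, as over all tested genes. None of 3 other TRIM-NHL genes was called by limma in the main fit or by voom (1 at an unadjusted limma p under 0.05). A call was gained without WT replicate 1, where calls also rose over all tested genes. Of 9 other high mobility group genes *Hmgn3* (−0.92, limma adjusted p = 0.0197) and *Hmgn2* (−0.55, limma adjusted p = 0.0266) were lower, both of which code for nucleosome-binding proteins. Fewer were called without WT replicate 2 or without either of the *Taf4a*-/- libraries, as over all tested genes.

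Of 18 other RNA-binding protein genes of stem and differentiating cells, 2 were called higher and 2 lower, with a median of 0.10. Over all tested genes, 11.3% were called higher and 17.3% lower. *L1td1*, a partner of Lin28 in pluripotent cells, rose from 1293 and 808 normalized counts in WT to 3221 and 2904 in *Taf4a*-/- (log2 fold change 1.58, SE 0.23, limma adjusted p = 0.00639), and *Syncrip* rose by 0.54 (limma adjusted p = 0.0307). *Esrp1*, a splicing regulator of epithelial cells, had 1590 and 1685 in WT and 958 and 758 in *Taf4a*-/- (−0.94, SE 0.15, limma adjusted p = 0.00932). *Mbnl2*, a splicing regulator that rises in differentiated cells, had a log2 fold change of −0.86 (limma adjusted p = 0.0492). More of them were called without WT replicate 1 and fewer without any other library, as over all tested genes.

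**Figure D5:**
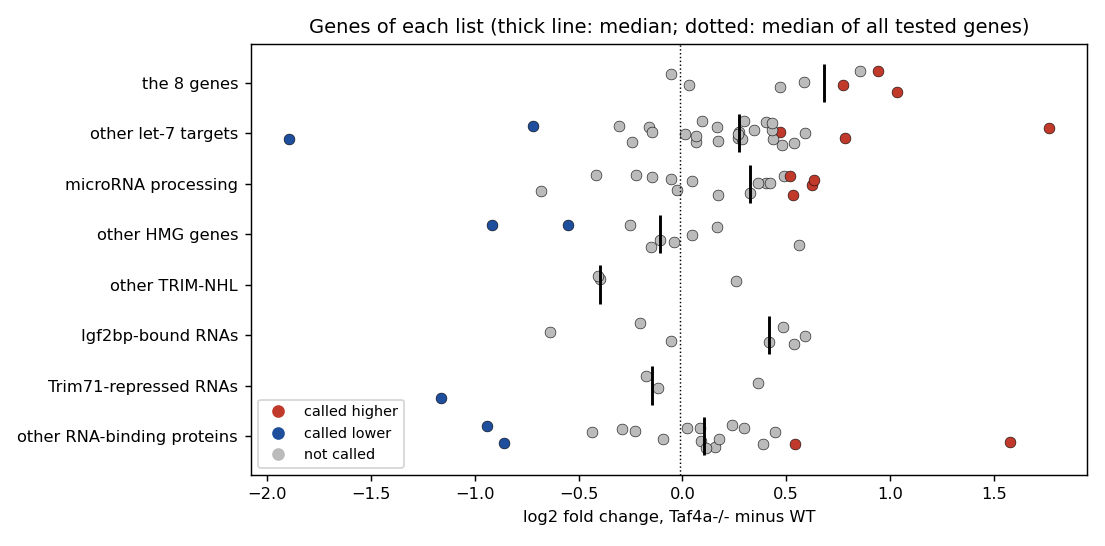
Log2 fold change of *Taf4a*-/- against WT (x axis) for the 8 genes (top row) and for each gene of the related lists, with called genes in colour, the median of each list as a thick line and that of all tested genes dotted. Most genes lie within 1 of 0, with *Igdcc3* at 1.77, *L1td1* at 1.58 and *Fas* at −1.90 farthest out.

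The genes whose profiles over the 4 libraries were most like those of the members were found by the root mean square difference of log2 values, each centred on its own mean. For *Lin28a* these were *Dkk1* (0.04), *Acvr2b* (0.04) and *Gm5454* (0.04), for *Lin28b* *Polr1a* (0.02), *Sall4* (0.02) and *Trp53* (0.02), and for *Hmga2* *Gm13928* (0.03), *Gm9311* (0.05) and *Igf2as* (0.05). With only 4 libraries, many genes come close: 43, 93 and 56 genes lay within 0.1 of the 3 profiles.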

How the data were processed

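Poly(A) RNA was sequenced in 4 libraries, 2 per genotype. Per the submitters' processing notes, the authors used CASAVA 1.8, TopHat 1.3.3 with mm9, HTSeq 0.5.3p1 and DESeq, and deposited counts divided by 1 size factor per library. Dividing by the value of 1 read gave whole reads for 100% of values (within 0.02). Here, log2(normalized count + 1) was fitted by limma 3.58.1 (R 4.3.3; lmFit, then eBayes with trend) for 16926 genes whose mean reached 10, and genes were called at a Benjamini-Hochberg adjusted p under 0.05. Annotation was GENCODE for NCBIM37. Figures used Python 3.11.15 and matplotlib 3.10.9.

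The members and lists were chosen with earlier results of these data known, and list counts support nothing on their own. The text names the 8 members, *Taf4a*, the 2 largest rises and falls called in each list, and the 3 profiles nearest to *Lin28a*, *Lin28b* and *Hmga2*. Other genes were named after their values were seen. No symbol was found for 2 listed genes, *Hras* and *Hmgb4*. P-values, standard errors and intervals of the fits with all 4 libraries combine 2 sources of spread. These are a gene's own spread between 2 lines a genotype and the spread that limma fitted over all tested genes. The labels do not say whether same-numbered lines were handled together, and the main fit did not pair them. The replicate 1 minus replicate 2 differences of the genotypes had a correlation over genes of 0.0118, which cannot settle this. Values of some genes are not reported here.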

Additional observations from a re-analysis of the deposited data

How the results depend on the processing

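The 3 calls among the members were kept under 8 of 13 alternatives (other pseudocounts, filters and scalings, the replicate block, and voom, which was chosen after seeing the data). With no variance trend, 0 members were called, as were 0 of the other let-7 targets, 0 of the microRNA processing genes, 1 high mobility group gene and 2 other RNA-binding genes. Calls also fell over all tested genes, to 856 higher and 1741 lower, from 1906 and 2928 in the main fit. Leaving out single libraries gave 0 to 6 members (6 without WT replicate 1, 1 without WT replicate 2, 0 without *Taf4a*-/- replicate 1), 1 to 11 let-7 targets, 0 to 7 processing genes, 0 to 2 high mobility group genes, 0 to 1 TRIM-NHL genes, 0 to 2 Igf2bp-bound RNAs, 1 to 3 Trim71-repressed RNAs and 1 to 8 other RNA-binding genes. The highest of each of these ranges came without WT replicate 1. Fits that leave 1 library in a group take a gene's own spread from the other group alone and assume that the single library varies likewise. The calls gained or lost in them do not measure the spread of both genotypes. The replicate block assumes a pairing that the labels do not state. With it, 1536 genes were called higher and 2657 lower, the same 3 members and 2 processing genes among them. A pseudocount of 10 gave 1 TRIM-NHL gene, and quantile normalization 1 high mobility group gene. Quantile normalization moved the median of all genes to 0.11 and the share of higher calls from 39.4% to 51.9%. The sign of *Igf2bp2* turned with equal totals (0.0036), voom (0.0047), and without WT replicate 1 (0.0073) or *Taf4a*-/- replicate 1 (0.024), and that of *Igf2bp3* with quantile normalization (−0.0042) and without WT replicate 2 (−0.082) or *Taf4a*-/- replicate 2 (−0.0053). Lengths from the longest transcript moved the mean log2 ratios per kb over 4 libraries from 3.54 to 2.80 for *Lin28a* to *Lin28b*, 1.04 to 1.80 for *Hmga2* to *Hmga1*, −0.26 to −0.57 for *Igf2bp1* to *Igf2bp2* and −0.52 to −1.04 for *Igf2bp3* to *Igf2bp2*. Over single libraries left out, *Igf2bp2* ranged from −0.14 to 0.024 and *Igf2bp3* from −0.082 to 0.14. The causes were not tested. edgeR and DESeq2 were planned and not run, and voom was the only test on the recovered reads.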

Other observations

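Let-7 matches were also counted in the 3′ UTRs of the other tested genes. Of 12135 genes with no match, 11.3% were called higher in the libraries labelled *Taf4a*-/- and 19.3% lower, and the median log2 fold change was −0.04. Of 2006 genes with 1 match, 10.7% were called higher and 18.7% lower (median −0.04), and of 327 genes with 2 matches, 16.5% and 19.3% (median 0.01). Of the 77 genes with 3 or more matches, 14.3% (11 genes) were called higher and 7.79% (6 genes) lower, with a median of 0.20. The 3′ UTRs of these classes differed in length, at medians of 975, 2102, 2936 and 4057 bases, and the part of length was not tested. No comparison between the classes was tested.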
